A study of Rattus norvegicus with 6 samples.

Results

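Complement is a set of plasma proteins, their regulators and the receptors that sense their fragments, and 35 of its genes were followed in rat livers with and without carbon tetrachloride (CCl4) injury. The members were chosen by their symbols as components, regulators and receptors of complement, and 34 of the 35 symbols stood in the expression table, on 36 of its 19616 rows. The symbol with no row was C5. From the larger FL (fibrotic liver) group of the study, 3 male SD rats were sequenced. Each injection was intraperitoneal and held CCl4 and olive oil 1:1, at 2 mL/kg, with 2 injections in each of 5 weeks. The larger CL (control) group received olive oil alone in equal volume, and 3 of its male SD rats were sequenced. The rats are called CL5, CL6, CL7, FL2, FL5 and FL12 after their labels, with 1 RNA library from the liver of each, and the comparison asks which genes differ between a fibrotic and a control liver.

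Complement is started along 3 routes. The classical route begins when C1q binds antibody or debris, the lectin route when mannose-binding lectins or collectins bind sugars, and the alternative route turns over at a low rate by itself. All routes cleave C3, after which C5 is cleaved and C6, C7, C8 and C9 assemble into a pore in the target membrane. The liver is the main source of most of these proteins in plasma, and hepatocytes make the bulk of them, whereas C1q and properdin come mainly from macrophages and other myeloid cells. Receptors for the fragments C3a and C5a sit largely on myeloid cells.

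Values are FPKM, fragments of a gene scaled to its transcript length and to the size of the library, so that levels can be compared between genes. FPKM summed to 309425, 340467 and 315259 over all genes in CL5, CL6 and CL7, and to 309226, 272350 and 272110 in FL2, FL5 and FL12. Read counts were not used here, so the absolute depth behind the values of each rat is not known. Relative depth, read from the smallest increments among U6 genes, was 1, 0.656 and 0.84 in CL5, CL6 and CL7, and 0.677, 0.75 and 0.677 in FL2, FL5 and FL12. Hepatocyte markers showed that the tissue was liver, with Alb (albumin, the most abundant of 14 markers) at 33392, 31431 and 31992 FPKM (CL5, CL6, CL7) and at 24149, 25052 and 25209 FPKM (FL2, FL5, FL12).

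The livers of the FL group were not alike, and FL2 stood apart in the complement genes. The 36 complement rows together made up 2.11, 1.9 and 1.95% of all FPKM in CL5, CL6 and CL7, against 3.44, 2.18 and 2.55% in FL2, FL5 and FL12. Their FPKM summed to 6539, 6470 and 6155 in the same CL rats and to 10641, 5949 and 6935 in the FL rats. By the sum FL5 was thus below every control, and by the share above, since its total over all genes was smaller. FL2 was the highest of the 6 rats in 21 of the 36 rows, beside 2253 of the 14864 genes tested below. Differences without FL2 are therefore given too for many of the genes in which it was highest.

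Groups were compared by limma on log2(FPKM + 0.1), with p-values adjusted by the Benjamini-Hochberg method over 14864 genes whose mean reached 0.1 FPKM. A gene passed at an adjusted p under 0.05, and differences are FL minus CL on the log2 scale with limma's standard error and 3 rats a group. All 36 complement rows met the minimum and were tested. Of these, 8 rose (C1qa, C1qb, 1 of 2 rows of C2, C4b, Cfb, C7, C3ar1 and C5ar1), beside 16.9% of all genes tested, and 2 fell (C8g and Cd59), beside 1.94%. Among the 3036 genes averaging 10 FPKM or more, as both of these do, 13.7% rose and 5.2% fell. The p-values rest on the spread between these rats, combined with a variance that limma draws from genes of similar level. For very abundant genes the latter can dominate, as for Alb, whose standard error was 0.98, and 0.12 in limma without that trend.

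At the 2-fold limit that the study used for its differentially expressed genes, 4 rose (C4b, C7, C3ar1 and C5ar1), beside 9.29% of all genes. In limma 0 fell by that much, beside 0.935%, since the lowest difference was -0.59, and 2 members were lower at an unadjusted p under 0.05. The 3 FL rats lay above the 3 CL rats without overlap in 12 of 36 rows, beside 35.7% of all genes, and below in 3, beside 4.78%. The median difference of the 36 rows was 0.39, against 0.29 for all genes tested. The counts of members that rose or lay above the controls were near the shares of all genes, and 2 that fell are too few to set the list apart.

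Without FL2, 4 members rose (C4b, C7, C3ar1 and C5ar1), beside 21.5% of 14847 genes, and 1 fell (C8g), beside 2.28%. The calls of C1qa, C1qb, Cfb, the C2 row and Cd59 were therefore lost when FL2 was left out. Leaving out a CL rat ended the same 5 calls, together with that of C4b without CL5 or CL7 and that of C8g without CL6. Without FL5 the calls of C1qa, C1qb and Cfb were lost, and without FL12 those of C4b, Cfb, the C2 row and Cd59.

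**Figure D1:**
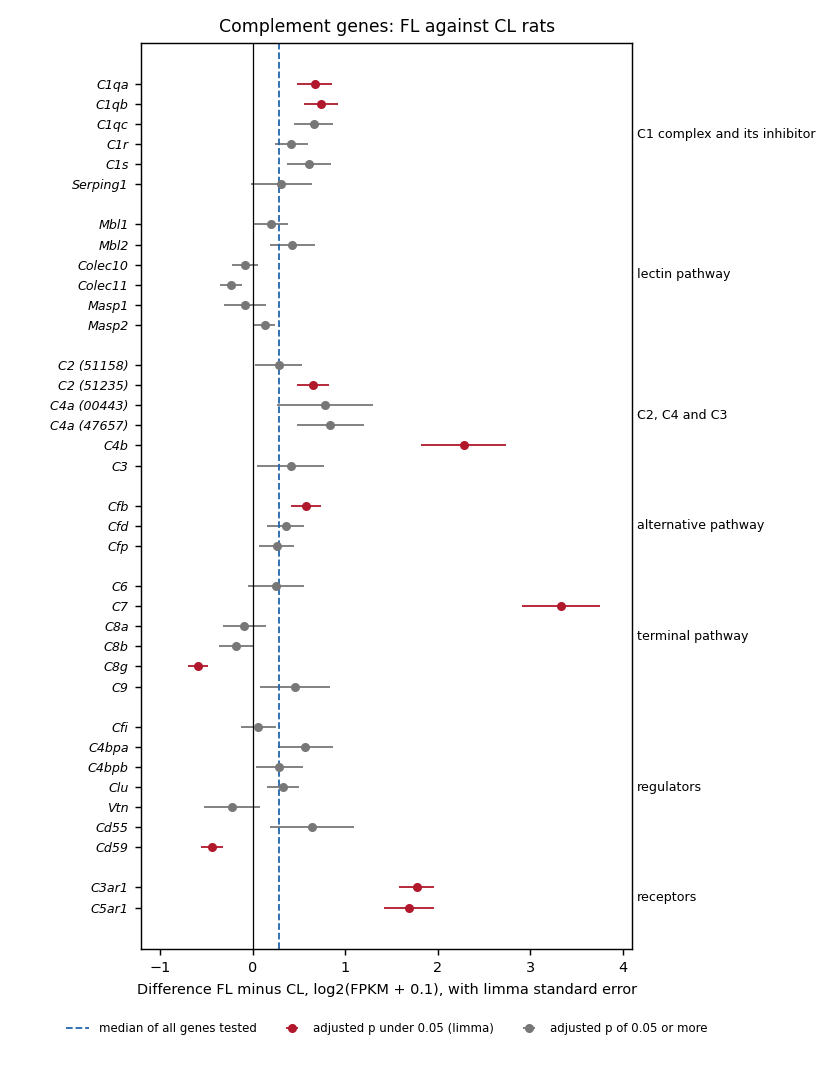
Each point is the difference of a complement gene between the FL and CL groups (3 rats each) on the log2(FPKM + 0.1) scale, with limma's standard error as the bar, grouped by role, and the last 5 digits of the identifier tell rows of 1 symbol apart. Red points passed an adjusted p of 0.05, the dashed line is the median of all genes tested (0.29), and C7 at 3.33 lies farthest to the right while C8g at -0.59 lies farthest to the left.

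C1q, the recognition part of the classical route, is built from 3 chains encoded side by side on chromosome 5. C1qa (ENSRNOG00000012807) stood at 27.3, 24.5 and 24.3 FPKM (CL5, CL6, CL7) and at 42.6, 51.0 and 30.4 FPKM (FL2, FL5, FL12). C1qb (ENSRNOG00000012749) was at 19.3, 17.7 and 19.4 FPKM in the same CL rats and at 34.5, 37.7 and 23.6 FPKM in the FL rats. For C1qc (ENSRNOG00000012804) the values were 43.7, 43.5 and 39.6 FPKM and 77.4, 81.4 and 47.3 FPKM. All 3 chains were highest in FL5, close behind in FL2 and nearest to the control range in FL12, and the groups did not overlap in any of them.

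The difference was 0.67 ± 0.19 for C1qa (adjusted p = 0.0419) and 0.74 ± 0.18 for C1qb (adjusted p = 0.0272), so both rose. C1qc had a difference of similar size, 0.66 ± 0.21, and missed the threshold (adjusted p = 0.0595). Without FL12 it passed. Within each rat the chains kept a narrow ratio, with C1qa at 0.551 to 0.643 of C1qc in the 6 rats. In bulk liver, fewer cells of a type and less RNA per cell cannot be told apart, and the same holds for more.

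C1r and C1s are the proteases that C1q carries, encoded next to each other on chromosome 4. C1r (ENSRNOG00000011796) measured 252, 222 and 212 FPKM (CL5, CL6, CL7) and 372, 266 and 283 FPKM (FL2, FL5, FL12), without overlap. The values of C1s (ENSRNOG00000011971) were 182, 126 and 145 FPKM and 319, 178 and 208 FPKM, and FL5 lay inside the control range. Neither passed, with differences of 0.42 ± 0.18 (adjusted p = 0.143) and 0.61 ± 0.24 (adjusted p = 0.117). Without FL2 they were 0.27 and 0.36.

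Serping1 (ENSRNOG00000007457, chromosome 3) encodes C1 inhibitor, which removes C1r and C1s from the complex. It was listed at 227, 308 and 299 FPKM (CL5, CL6, CL7) and at 586, 253 and 269 FPKM (FL2, FL5, FL12). FL2 was far above every other rat, while FL5 and FL12 lay among the controls. The difference of 0.31 ± 0.33 did not pass (adjusted p = 0.523) and was -0.08 without FL2.

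In the lectin route, 0 of 6 genes passed in limma, beside 16.9% of all genes that rose and 1.94% that fell, and 0 had an unadjusted p under 0.05. With so few genes this does not set the route apart. Mbl1 (ENSRNOG00000011706, chromosome 16), which encodes mannose-binding lectin A, had 82.3, 95.6 and 88.2 FPKM (CL5, CL6, CL7) and 126, 78.3 and 106 FPKM (FL2, FL5, FL12). The serine protease gene Masp1 (chromosome 11) had 51.8, 49.4 and 47.9 FPKM in the controls and 70.3, 36.8 and 40.2 FPKM in the FL rats. FL2 was the highest rat for both and FL5 the lowest. The differences were 0.20 ± 0.18 and -0.08 ± 0.23, and 0.04 and -0.37 without FL2. Without FL5 they were 0.39 and 0.10. Masp2 (chromosome 5), whose product cleaves C4 and C2, varied least, at 62.2, 65.2 and 60.1 FPKM and 69.6, 65.1 and 71.0 FPKM.

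Colec11 (chromosome 6), a soluble collectin that can pair with the product of Colec10, was at 20.6, 19.3 and 18.8 FPKM (CL5, CL6, CL7) and at 18.7, 16.5 and 15.0 FPKM (FL2, FL5, FL12). Each FL rat was below the lowest CL rat, FL2 only just outside the control range, and the difference was -0.23 ± 0.12 (adjusted p = 0.203). Colec10 (chromosome 7) overlapped between the groups, at 7.20, 6.94 and 8.46 FPKM and 8.0, 6.78 and 6.60 FPKM. Differences in the lectin route ran from -0.23 to 0.43, with a median of 0.03.

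The row under the symbol Mbl2 (ENSRNOG00000011637, chromosome 1) held low values, 2.31, 1.40 and 2.15 FPKM (CL5, CL6, CL7) and 2.07, 3.14 and 2.70 FPKM (FL2, FL5, FL12). A second row, LOC100911854 (ENSRNOG00000050305), described as mannose-binding protein C-like and chosen after its values were seen, also lay on chromosome 1. It held far higher values, 126, 131 and 142 FPKM in the controls and 63.6, 79.2 and 117 FPKM in the FL rats. On that row all 3 FL rats were below all 3 CL rats, FL2 most of all, yet the difference of -0.67 ± 0.22 did not pass (adjusted p = 0.0662). It passed without FL12 and with median scaling. How reads were divided between such similar genes is unknown, so the level of mannose-binding lectin C cannot be read from 1 row.

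C3 (ENSRNOG00000046834, chromosome 9) is the protein on which all routes meet, and its gene was the most abundant member. It measured 2289, 2114 and 1931 FPKM (CL5, CL6, CL7) and 3998, 2140 and 2568 FPKM (FL2, FL5, FL12). FL5 fell within the control range, FL12 stood somewhat above it and FL2 far above. Among all genes C3 ranked 15, 16 and 17 in CL5, CL6 and CL7 and 8, 11 and 9 in FL2, FL5 and FL12. The difference was 0.41 ± 0.36 and did not pass (adjusted p = 0.447), and without FL2 it was 0.15.

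C2 and C4 supply the enzyme that cleaves C3 in the classical and lectin routes. Their genes lie on chromosome 20, in the region of the major histocompatibility complex, and the table held 2 rows for C2 and 2 for C4a besides 1 for C4b. The abundant row of C2 (ENSRNOG00000051158) had 317, 295 and 259.8 FPKM (CL5, CL6, CL7) and 489, 248 and 359 FPKM (FL2, FL5, FL12). Here the groups overlapped, since FL5 was the lowest of the 6 rats. The difference was 0.28 ± 0.25 (adjusted p = 0.456), or 0.04 without FL2 and 0.53 without FL5. The minor row (ENSRNOG00000051235) had 4.09, 3.80 and 3.6 FPKM and 6.54, 4.83 and 6.98 FPKM, without overlap, and rose by 0.65 ± 0.17 (adjusted p = 0.033).

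C4b (ENSRNOG00000030729) was the member of this group that rose most. It lay at 0.39, 0.59 and 0.41 FPKM (CL5, CL6, CL7) and at 4.83, 1.16 and 3.09 FPKM (FL2, FL5, FL12). Every FL rat was above every CL rat, and FL2 and FL12 were well above FL5. The difference was 2.28 ± 0.46 (adjusted p = 0.0152), from a control level below 1 FPKM.

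The rows of C4a did not pass. The first (ENSRNOG00000000443) had 5.26, 1.52 and 4.47 FPKM (CL5, CL6, CL7) and 10.8, 5.08 and 3.48 FPKM (FL2, FL5, FL12), overlapping widely. The second (ENSRNOG00000047657) stayed below 1 FPKM in all 6 rats, at 0.34, 0.21 and 0.28 and 0.94, 0.41 and 0.46. Their differences were 0.78 ± 0.52 and 0.84 ± 0.36, and 0.34 and 0.52 without FL2. Without CL6 that of the first row was 0.25. C4a and C4b are near copies of each other, and uniquely mapped reads can miss such copies, so neither the low level of C4 nor the rise of C4b is certain as a measure of total C4 mRNA.

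The alternative route needs factor B, factor D, which cleaves it, and properdin, which stabilizes the resulting enzyme. Cfb (ENSRNOG00000000419, beside C2 on chromosome 20) had 13.6, 13.2 and 10.1 FPKM (CL5, CL6, CL7) and 21.3, 16.5 and 17.3 FPKM (FL2, FL5, FL12). All FL rats were above all CL rats, with FL2 highest, and Cfb rose by 0.58 ± 0.16 (adjusted p = 0.0409). This call was near the threshold and was lost when any 1 of the 6 rats was left out.

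Cfd (ENSRNOG00000033564, chromosome 7), known as adipsin for its expression in fat cells, measured 5.99, 5.59 and 5.58 FPKM (CL5, CL6, CL7) and 10.03, 5.67 and 7.04 FPKM (FL2, FL5, FL12). The rats of both groups overlapped narrowly, with FL2 above the rest, and the difference was 0.36 ± 0.20 (adjusted p = 0.231), or 0.14 without FL2. Cfp (ENSRNOG00000025811, chromosome X), the properdin gene of myeloid cells, had 14.2, 12 and 10.8 FPKM and 17.3, 16.6 and 11 FPKM. In FL12 it lay within the control range, unlike FL2 and FL5, and the difference was 0.26 ± 0.19 (adjusted p = 0.366), or 0.14 without FL2.

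The terminal proteins form the membrane attack complex, and here 1 gene rose strongly and 1 fell. Each was 16.7% of the 6 rows, beside 16.9% of all genes that rose and 1.94% that fell. Such a short list is not set apart by these counts. C7 (ENSRNOG00000061379, chromosome 2) encodes the component that lets the growing complex insert into the membrane. It was listed at 3.15, 5.06 and 4.57 FPKM (CL5, CL6, CL7) and at 23.2, 41.4 and 83.3 FPKM (FL2, FL5, FL12). The groups were far apart, with FL12 highest and FL2 lowest of the FL rats. C7 rose by 3.33 ± 0.42 (adjusted p = 0.00414), and the ratio of the group means was 11.6.

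C6 (ENSRNOG00000024115) has only Mroh2b between it and C7 in the RefSeq order of genes. Its levels were 36.5, 30.2 and 27.9 FPKM (CL5, CL6, CL7) and 63.9, 28.1 and 29.0 FPKM (FL2, FL5, FL12). Only FL2 left the control range, and the difference of 0.25 ± 0.30 did not pass (adjusted p = 0.58) and was -0.13 without it. Within a rat, C7 amounted to 0.0863, 0.168 and 0.164 of C6 in CL5, CL6 and CL7, and to 0.363, 1.47 and 2.87 of it in FL2, FL5 and FL12. C7 was thus below C6 in each control, and above it in FL5 and FL12.

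C8 contains 3 chains, alpha, beta and gamma, the last being a lipocalin that is linked to alpha by a disulfide bond. C8a (ENSRNOG00000007697, beside C8b on chromosome 5) had 236, 215 and 225 FPKM (CL5, CL6, CL7) and 304, 167 and 188 FPKM (FL2, FL5, FL12). C8b (ENSRNOG00000007639) had 184, 189 and 186 FPKM in the controls and 213, 138 and 152 FPKM in the FL rats. For both, FL2 lay above every control, and FL5 and FL12 below every control. The differences were -0.09 ± 0.23 and -0.18 ± 0.18 (adjusted p = 0.811 and 0.516), and -0.35 and -0.36 without FL2.

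C8g (ENSRNOG00000028701, chromosome 3) followed another course, at 82.8, 87.4 and 82.9 FPKM (CL5, CL6, CL7) and 60.0, 55.2 and 52.9 FPKM (FL2, FL5, FL12). All FL rats, FL2 included, were below all CL rats, and the FL values were close to each other. The difference was -0.59 ± 0.11 (adjusted p = 0.0123). Among the leave-one-out fits, the call was lost without CL6. Relative to C8a in the same rat, C8g was at 0.35, 0.408 and 0.368 in CL5, CL6 and CL7 and at 0.197, 0.33 and 0.282 in FL2, FL5 and FL12, again without overlap.

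C9 (ENSRNOG00000013736, chromosome 2), which polymerizes to form the pore, was at 307, 282 and 315 FPKM (CL5, CL6, CL7) and at 787, 249 and 359 FPKM (FL2, FL5, FL12). FL2 exceeded all controls by far, and FL5 was below them. The difference of 0.46 ± 0.38 did not pass (adjusted p = 0.417) and was -0.01 without FL2.

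C5 itself had no row under that symbol, and RefSeq lists Hc as a synonym of rat C5. The row Hc (ENSRNOG00000018899), chosen after its values were seen, had 208, 180.0 and 197 FPKM (CL5, CL6, CL7) and 423, 242 and 331 FPKM (FL2, FL5, FL12). There the groups did not overlap, and FL2 was highest. The difference was 0.73 ± 0.22, just short of the threshold (adjusted p = 0.0514), and 0.54 without FL2. A further row described as similar to a C5 precursor, RGD1308742, was at 10.2, 12.7 and 11.5 FPKM and 11.6, 10.3 and 8.87 FPKM and overlapped between the groups.

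Of the 7 regulators, 0 rose in limma (0 at an unadjusted p under 0.05) and 1 fell, or 0% and 14.3% beside 16.9% and 1.94% of all genes. Cd59 (ENSRNOG00000042821, chromosome 3) encodes the membrane-anchored inhibitor that keeps C9 from forming a pore on the body's own cells. It stood at 19.5, 20.0 and 20.6 FPKM (CL5, CL6, CL7) and at 14.4, 16.8 and 13.3 FPKM (FL2, FL5, FL12). The 3 controls were nearly equal and every FL rat was lower. Cd59 fell by a log2 difference of -0.44 ± 0.12 (adjusted p = 0.04).

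Cd55 (ENSRNOG00000003927, chromosome 13), another membrane regulator, which speeds the decay of the C3-cleaving enzymes, was barely detected, at 0.06, 0.16 and 0.09 FPKM (CL5, CL6, CL7) and 0.11, 0.19 and 0.39 FPKM (FL2, FL5, FL12). At such levels the 2 decimals of the table are coarse, the groups overlapped, and the difference was 0.64 ± 0.45 (adjusted p = 0.344).

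Among the soluble regulators, vitronectin (Vtn, ENSRNOG00000010031, chromosome 10) was the most abundant, with 1112, 1354 and 1231 FPKM (CL5, CL6, CL7) and 1506, 780.0 and 990.0 FPKM (FL2, FL5, FL12). Clusterin (Clu, ENSRNOG00000016460, chromosome 15), which like vitronectin binds terminal complexes, had 289.8, 328 and 271 FPKM in the controls and 382, 398 and 334 FPKM in the FL rats. Vtn was highest in FL2 and below the controls in FL5 and FL12, whereas Clu was above the controls in every FL rat, FL5 foremost. Neither passed, with differences of -0.22 ± 0.30 and 0.33 ± 0.17 (adjusted p = 0.626 and 0.2). Without FL2 that of Vtn was -0.48.

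The C4b-binding protein has an alpha and a beta chain, and with factor I, the protease encoded by Cfi, it breaks down C4b. C4bpa (ENSRNOG00000004062, chromosome 13) had 190.2, 148 and 155 FPKM (CL5, CL6, CL7) and 388, 163 and 224 FPKM (FL2, FL5, FL12). C4bpb (chromosome 13) had 109, 100.03 and 112 FPKM and 194, 90.8 and 125 FPKM, and Cfi (chromosome 2) had 339, 283 and 329.7 FPKM and 412, 297 and 296 FPKM. All 3 genes were highest in FL2, and the groups overlapped. Their differences were 0.57 ± 0.30, 0.29 ± 0.25 and 0.06 ± 0.19, with adjusted p-values of 0.212, 0.449 and 0.832. Without FL2 they were 0.23, -0.003 and -0.09.

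Both receptors rose, or 100% beside 16.9% of all genes. With only 2 genes this share does not set the receptors apart. C3ar1 (ENSRNOG00000009211, chromosome 4), the receptor for C3a, was at 0.68, 0.73 and 0.80 FPKM (CL5, CL6, CL7) and at 2.58, 3.24 and 2.48 FPKM (FL2, FL5, FL12). C5ar1 (ENSRNOG00000047800, chromosome 1), the receptor for C5a that draws neutrophils and monocytes, was at 1.32, 2.01 and 2.82 FPKM in the controls and 5.62, 8.17 and 6.14 FPKM in the FL rats. In both genes every FL rat was far above every CL rat, and FL5 was the highest. The differences were 1.77 ± 0.19 (adjusted p = 0.0024) and 1.69 ± 0.27 (adjusted p = 0.00729).

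The members were then sorted by the cell that is known to make most of each product. Hepatocyte-made components held 25 rows from 23 genes, myeloid components 6 rows (the C1q chains, Cfp, C3ar1 and C5ar1), and genes of other or several sources 5 rows (C7, Cfd, Colec10, Cd55 and Cd59). Of the hepatocyte-made rows, 3 rose (C4b, Cfb and the minor row of C2) and 1 fell (C8g), which is 12% and 4% of them, beside 16.9% and 1.94% of all genes, with a median difference of 0.31 beside 0.29. Of the myeloid rows, 4 rose and 0 fell in limma (0 at an unadjusted p under 0.05), or 66.7% and 0% beside those same shares, with a median of 0.70. Relative to the median of all genes these medians were 0.02 and 0.42. They depend on the reference, since the 3036 genes averaging 10 FPKM or more had a median of 0.12, and with quantile normalization the medians were 0.29 and 0.59 beside -0.04 for all genes. The difference between the lists was not tested.

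The lists also ranked the FL rats in another order. Among the 25 hepatocyte-made rows, FL2 was the highest FL rat in 21, while FL5 was below the control mean in 14. Relative to the control mean, their median log2 level was 0.76 in FL2, -0.09 in FL5 and 0.23 in FL12. Among the 6 myeloid rows FL5 was the highest in 5, and the medians were 0.87, 1.0 and 0.30 in FL2, FL5 and FL12. Over all genes tested the medians were 0.20, 0.33 and 0.35 in the same rats. Of those 14864 genes, FL2 was the highest FL rat in 3354, FL5 in 5406 and FL12 in 6104.

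Without FL2 the median difference of the hepatocyte-made rows was 0.04, beside 0.34 for all genes, and that of the myeloid rows was 0.65. C4b still rose and C8g still fell among the hepatocyte-made rows, while of the 6 myeloid rows 2 still rose (C3ar1 and C5ar1), beside 21.5% of all genes. The calls of C1qa and C1qb were also lost with either scaling and in limma without trend. Leaving out FL5 or FL12 instead gave hepatocyte-made medians of 0.51 and 0.40. As a list, the hepatocyte-made complement genes were thus near the control level in FL5, above it in FL2 and in between in FL12.

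**Figure D2:**
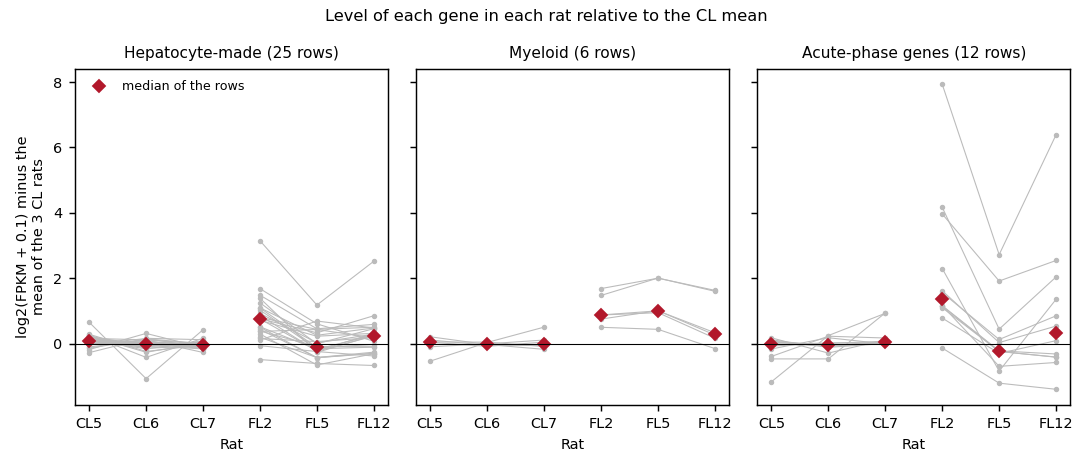
Each grey point is the level of a gene in a rat on the log2(FPKM + 0.1) scale, minus the mean of the 3 CL rats, with lines joining the values of a gene within a group, and red diamonds are medians over the rows of each panel. In FL2, FL5 and FL12 the medians are 0.76, -0.09 and 0.23 for hepatocyte-made complement, 0.87, 1.0 and 0.30 for myeloid complement, and 1.36, -0.23 and 0.31 for acute-phase genes.

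Acute-phase genes, which hepatocytes switch on in inflammation, were likewise highest in FL2 among the FL rats. Of 12 such genes 2 rose (Lcn2 and A2m) and 0 fell in limma (1 at an unadjusted p under 0.05, Crp), and the 16.7% that rose was near the 16.9% of all genes. FL2 was the highest FL rat in all 12 and the highest of the 6 rats in 11. The exception, Crp, picked here after its values were seen, had 786, 832 and 869 FPKM (CL5, CL6, CL7) and 753, 357 and 314 FPKM (FL2, FL5, FL12), with each FL rat below every control. Their FPKM summed to 10956, 10272 and 11197 in CL5, CL6 and CL7 and to 29205, 9362 and 11736 in FL2, FL5 and FL12, a sum that was far above the controls in FL2 only. The genes went both ways behind it in FL12, where their median log2 level relative to the control mean was 0.31 and where 5 of the 12 lay below that mean.

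Lipocalin 2 (Lcn2) measured 1.35, 1.35 and 3.75 FPKM (CL5, CL6, CL7) and 490.5, 13.1 and 168 FPKM (FL2, FL5, FL12). A2m, an acute-phase protease inhibitor of the rat, had 0.56, 0.59 and 0.59 FPKM in the controls and 10.5, 2.46 and 3.86 FPKM in the FL rats. FL2 was the highest and FL5 the lowest FL rat in both, and both rose, by 5.68 ± 1.15 (adjusted p = 0.0152) and 2.81 ± 0.46 (adjusted p = 0.00789). The call of Lcn2 was lost without CL5, CL6 or FL12. Its difference was 4.56 without FL2 and 7.16 without FL5. The most abundant, haptoglobin (Hp), was at 2572, 2317 and 2458 FPKM and 7491, 2498 and 3546 FPKM, with FL2 alone far from the controls, and did not pass (adjusted p = 0.309). Its difference was 0.73 ± 0.48, and 0.28 without FL2. The part of an acute-phase response in the complement values of FL2 was not tested.

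Of 16 tested regulators of complement transcription, Spi1 and Nfkb1 rose and 0 fell in limma (1 at an unadjusted p under 0.05), and this 12.5% was no more than the 16.9% of all genes. Spi1 encodes PU.1, a factor of myeloid cells, and was at 2.65, 5.51 and 4.23 FPKM (CL5, CL6, CL7) and 12.4, 14.7 and 8.42 FPKM (FL2, FL5, FL12). Nfkb1 was at 5.93, 5.91 and 5.75 FPKM in the controls and 8.21, 9.26 and 10.1 FPKM in the FL rats. Neither gene overlapped between the groups, with differences of 1.52 ± 0.29 (adjusted p = 0.0127) and 0.64 ± 0.12 (adjusted p = 0.0127). Both calls were lost without FL5, and that of Nfkb1 also without CL7. The most abundant was Hnf4a, a master factor of hepatocytes, with 125, 119 and 131 FPKM and 108, 109 and 108 FPKM (adjusted p = 0.239).

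Stat3 and Socs3, which relay and restrain the interleukin 6 signal, were looked at after the rats had been compared. Socs3 had 1.19, 3.42 and 3.21 FPKM (CL5, CL6, CL7) and 15.1, 2.55 and 2.23 FPKM (FL2, FL5, FL12). Stat3 had 23.6, 20.1 and 22.2 FPKM in the controls and 44.9, 20.8 and 23.8 FPKM in the FL rats. In both, FL2 was far above the controls and FL5 and FL12 were within or next to the control range, and neither passed (adjusted p = 0.405 and 0.363). Other genes of the list did not follow this course. Il6r was at 20.0, 22.6 and 21.9 FPKM in the controls and 19.1, 17.8 and 22.6 FPKM in the FL rats. Il6st was at 103.4, 111.2 and 100.5 FPKM and 110.8, 77.9 and 69.7 FPKM. FL2 was the highest of the 6 rats in 7 of the 16 genes tested, beside 2253 of all 14864. Il6 itself lay below the minimum level and was not tested.

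Many but not all markers of macrophages and monocytes rose. Of 18 markers 11 rose (61.1%, beside 16.9% of all genes), all of them at least 2-fold, and 0 fell in limma (0 at an unadjusted p under 0.05), with a median difference of 1.25. The other 7 did not pass, and 2 of them had a negative difference, Clec4f and Cd14, the latter at -0.70 ± 0.39 and named after its value was seen. Their FPKM summed to 163, 176 and 165 in CL5, CL6 and CL7 and to 393, 395 and 273 in FL2, FL5 and FL12, and none of the 18 was listed at 0 in all rats. FL12 had the lowest sum of the FL rats, as it had the lowest C1q.

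The 5 that rose most were Lyz2, Marco, Cx3cr1, Cd68 and Fcer1g, with differences of 3.13 ± 0.29, 2.06 ± 0.32, 1.99 ± 0.40, 1.69 ± 0.16 and 1.67 ± 0.31. The call of Cx3cr1 was lost without CL7, FL5 or FL12. Cd68, a lysosomal protein of macrophages, was at 11.6, 12.4 and 11.2 FPKM (CL5, CL6, CL7) and 35.8, 48.5 and 31.8 FPKM (FL2, FL5, FL12). Clec4f, a marker of the resident Kupffer cells and the most abundant of the list, was at 49.9, 43.2 and 48.4 FPKM in the controls and 66.6, 57.4 and 26.3 FPKM in the FL rats. Its groups overlapped, with FL12 lowest of all, and the difference was -0.02 ± 0.31 (adjusted p = 0.974).

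Ratios to a macrophage marker within a rat, computed after the values were seen, depended on the marker. C1qa was at 2.36, 1.97 and 2.17 times Cd68 in CL5, CL6 and CL7 and at 1.19, 1.05 and 0.955 times Cd68 in FL2, FL5 and FL12. Against Clec4f it was at 0.547, 0.566 and 0.503 in the controls and at 0.64, 0.887 and 1.16 in the FL rats, so the groups were apart in opposite directions. Over the 18 markers, the ratio of C1qa was lower in every FL rat than in every CL rat for 11, higher for 4 and overlapping for 3. For C3ar1 it was lower for 1 marker, higher for 8 and overlapping for 9. The part of macrophage number in the complement values was not tested.

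Some markers of other cell types rose as well. Of 5 neutrophil markers tested 3 rose (S100a8, S100a9 and Csf3r), or 60% beside 16.9% of all genes, at levels near or below 1 FPKM in most rats. The call of S100a8 was lost when any 1 rat was left out, that of S100a9 for any rat but CL7, and that of Csf3r without CL7. All 8 neutrophil markers summed to 0.47, 1.06 and 1.24 FPKM (CL5, CL6, CL7) and to 4.95, 2.27 and 4.83 FPKM (FL2, FL5, FL12). The most abundant was S100a8, and Mpo, Elane and Camp lay below the minimum level. Of 11 stellate cell and fibroblast markers tested 9 rose (81.8%), the 5 largest being Col1a1, Lum, Col3a1, Des and Dcn, and the most abundant was Col3a1. The call of Lum was lost without CL6, CL7, FL5 or FL12. The sums of all 12 markers of that list were 90.9, 89.4 and 83.2 FPKM (CL5, CL6, CL7) and 230, 560 and 512 FPKM (FL2, FL5, FL12).

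FL2 was thus the lowest FL rat in the sum of fibroblast markers and also in C7, while it was the highest in the median of hepatocyte-made complement. Col1a1, the collagen gene of scar tissue, had 2.12, 3.77 and 2.12 FPKM (CL5, CL6, CL7) and 17, 101 and 73.7 FPKM (FL2, FL5, FL12). It rose by 4.24 ± 0.60 (adjusted p = 0.00519), or by 5.02 without FL2 and 3.73 without FL5. The part of fibroblasts in the values of C7 was not tested.

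Among the remaining lists, 2 of 7 endothelial markers rose (Vwf and Stab2), with Kdr the most abundant. Of 6 cholangiocyte markers 1 rose (Spp1, also the most abundant), of 6 lymphocyte markers tested 1 (Cd2), with Cd79a the most abundant, and of 3 adipocyte markers tested 1 (Lpl), with Cidec the most abundant. The share that rose was thus 28.6% for endothelial, 16.7% for both cholangiocyte and lymphocyte and 33.3% for adipocyte markers, on few genes each and beside 16.9% of all genes. The call of Vwf was lost when any 1 rat but FL2 was left out, that of Cd2 without CL5, CL6 or FL5, and those of Stab2 and Spp1 without CL7. Of the 14 hepatocyte markers 0 passed in limma (2 higher and 0 lower at an unadjusted p under 0.05), and their median difference was -0.17. Relative to the control mean, the median level of these markers was -0.18 in FL2, -0.20 in FL5 and -0.25 in FL12. Hepatocyte-made complement had medians of 0.76, -0.09 and 0.23 in the same rats. The lists were thus close in FL5, while complement was higher than the markers in FL2 and FL12.

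A further list held 24 other genes of the pathway, of which 22 had a row and 21 were tested. Of these 7 rose (33.3%, beside 16.9% of all genes) and 0 fell in limma (1 lower at an unadjusted p under 0.05), with a median difference of 0.50, and 6 rose at least 2-fold. Itgax, Itgam and Itgb2 encode chains of the integrin receptors for fragments of C3 on myeloid cells. Itgax was at 0.21, 0.21 and 0.16 FPKM (CL5, CL6, CL7) and at 0.70, 2.49 and 2.02 FPKM (FL2, FL5, FL12), a difference of 2.49 ± 0.44 (adjusted p = 0.01). Itgam was at 0.44, 0.24 and 0.35 FPKM in the controls and 2.10, 1.66 and 1.91 FPKM in the FL rats, a difference of 2.19 ± 0.25 (adjusted p = 0.00319). For both genes the FL rats were above the controls without overlap, with FL2 lowest for Itgax and highest for Itgam.

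The collectin gene Colec12, a scavenger receptor, rose by 1.84 ± 0.28 (adjusted p = 0.00612), and Fcnb, a ficolin of myeloid cells, by 1.68 ± 0.40 (adjusted p = 0.027). Thbd, whose product thrombomodulin helps factor I, rose by 1.17 ± 0.21 (adjusted p = 0.0105). The call of Thbd was lost with quantile normalization, at 0.69 (adjusted p = 0.0746). The other genes that rose were Itgb2 and C1qbp. The call of Fcnb was lost without CL5, CL6, CL7 or FL12.

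The receptor gene Cr2 was below the minimum level, and Cd93 and Cd59b had no row. RefSeq gives the gene at the rat Cd59 position as Cd59b, so the row named Cd59 is probably the same gene. Without FL2, 11 of the other genes of the pathway passed in either direction, in place of 7, while the share of all genes that passed was larger as well, at 21.5% higher and 2.28% lower in place of 16.9% and 1.94%.

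RefSeq (build GRCr8) gave the 250 bases upstream of the start of 22 members. Whether these promoters bear on members that moved together was not tested. Short motifs were searched on both strands, and a match is a description of letters, with no binding measured. TTGCNNAA, part of the C/EBP motif of acute-phase genes, occurred in 6 of 16 hepatocyte-made promoters (C1r, C3, C4bpa, C6, C8a and C8b) and in 0 of 4 myeloid ones, against 9.22% of 33469 promoters. GAGGAA, the core bound by PU.1, occurred in 4 of 16 and in 2 of 4 (C1qb and Cfp), against 23.3%. TTCNNNGAA, the STAT motif, occurred in 3 of 16 and in 1 of 4 (C1qa), against 7.67%.

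The promoters of 4 members are shown because these genes represent the lists that ranked the FL rats in another order, C1qa and C1qb for the myeloid genes that rose and C3 and C4bpa for the hepatocyte-made genes that peaked in FL2. Each is written 5′ to 3′ on the strand of the gene, which is the minus strand for all 4, and capitals mark the motif found. C1qa lies at chr5:154419934-154420183 and holds TTCNNNGAA, C1qb at chr5:154407828-154408077 and holds GAGGAA on both strands, C3 at chr9:2201340-2201589 and C4bpa at chr13:44663472-44663721, each with TTGCNNAA.
C1qa: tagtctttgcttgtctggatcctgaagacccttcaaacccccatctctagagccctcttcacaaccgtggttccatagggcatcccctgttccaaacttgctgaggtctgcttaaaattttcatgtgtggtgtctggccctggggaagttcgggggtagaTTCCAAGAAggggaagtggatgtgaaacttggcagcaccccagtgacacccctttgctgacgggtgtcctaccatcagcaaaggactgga
C1qb: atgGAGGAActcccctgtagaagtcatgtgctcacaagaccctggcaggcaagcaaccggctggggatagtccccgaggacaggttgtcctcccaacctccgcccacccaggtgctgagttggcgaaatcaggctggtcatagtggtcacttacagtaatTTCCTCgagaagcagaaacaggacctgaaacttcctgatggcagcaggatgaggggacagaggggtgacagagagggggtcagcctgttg
C3: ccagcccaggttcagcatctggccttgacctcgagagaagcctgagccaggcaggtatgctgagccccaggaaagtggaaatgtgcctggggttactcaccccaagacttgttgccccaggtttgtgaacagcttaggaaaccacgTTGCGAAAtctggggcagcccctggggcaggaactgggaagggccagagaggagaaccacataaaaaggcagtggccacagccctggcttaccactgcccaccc
C4bpa: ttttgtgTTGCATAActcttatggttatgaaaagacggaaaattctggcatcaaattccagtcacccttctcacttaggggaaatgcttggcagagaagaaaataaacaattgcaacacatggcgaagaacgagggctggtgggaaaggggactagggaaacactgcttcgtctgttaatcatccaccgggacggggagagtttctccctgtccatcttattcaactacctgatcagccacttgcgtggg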

How the data were processed

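The authors removed ribosomal RNA, aligned trimmed reads with TopHat2 and counted unique alignments, and the deposited values are FPKM with 2 decimals, 1 library per rat. The methods of the study give GRCH38 as genome build, although the gene identifiers are those of Ensembl for the rat, so no position was taken from the table beyond the chromosome. No scaling between rats is stated. Of the value columns, 2 match no sample and were not used here.

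FPKM are not counts, so groups were compared with limma 3.58.1 in R 4.3.3 on log2(FPKM + 0.1), with a prior that follows the mean and Benjamini-Hochberg adjustment over genes whose mean reached 0.1 FPKM. Tables and plots used Python 3.11.15 with numpy 2.4.6, pandas 2.3.3 and matplotlib 3.10.9. All members are named, and from each other list the members that passed and changed most, up to 5 in each direction, and for the cell type, acute-phase and transcription lists the most abundant. Exceptions are stated where they occur. The members and lists were chosen with earlier results of these data known. Alternatives were other pseudocounts, filters, scalings and limma priors, and leaving out each rat. The procedure was tested on simulated data.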

Additional observations from a re-analysis of the deposited data

How the results depend on the processing

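Across 14 alternatives C7, C3ar1 and C5ar1 rose in every one, with adjusted p-values of 0.00171 to 0.0219, 0.002 to 0.0151 and 0.00535 to 0.0329. C8g fell in 13 (adjusted p 0.00897 to 0.05) and C4b rose in 10 (0.00779 to 0.0839). The other calls were less steady, with Cd59 passing in 8, C1qb and the minor C2 row in 6, C1qa in 5 and Cfb in 4. Adjusted p-values ran from 0.0124 to 0.236 for C1qc and from 0.0329 to 0.21 for Hc, which passed in 1 and in 4 alternatives, and from 0.0198 to 0.187 for LOC100911854, which passed in 2. Of the genes named from other lists as having risen, S100a8 and S100a9 passed in 3, Vwf in 6, Fcnb in 7, Cd2 in 8, Cx3cr1 and Lum in 9, and Csf3r, Lcn2 and Nfkb1 in 11. For S100a9, Fcnb, Cd2, Cx3cr1 and Csf3r these are out of 13, since they lay below the filter at 1 FPKM. Median scaling moved the median difference of all genes from 0.29 to 0.08, and quantile normalization to -0.04, beside 0.09 and 0.29 for hepatocyte-made and 0.48 and 0.59 for myeloid components. Complement genes that rose numbered 4 with median scaling, 3 with quantile normalization and 4 in limma without trend, where 1 fell. With each rat left out, 3 to 6 rose and 0 to 2 fell, and 5 to 11 of the other complement genes passed. Shares of all genes that passed are given for the main comparison and without FL2 only. The counts under the other alternatives therefore do not show a change particular to complement.

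With median scaling the difference of Mbl1 became -0.02, of Masp2 -0.09 and of Cfi -0.16, and with quantile normalization that of Alb became 0.49. Leaving out each rat gave ranges that crossed 0 for Serping1 (-0.08 to 0.53), Colec10 (-0.16 to 0.01), Masp1 (-0.37 to 0.10), C6 (-0.13 to 0.46), C8a (-0.35 to 0.08), C9 (-0.01 to 0.82), Cfi (-0.09 to 0.15), C4bpb (-0.003 to 0.54) and Clec4f (-0.28 to 0.39). The rows Hc, RGD1308742 and LOC100911854 were added after seeing the data. The cause of these changes was not tested. Fits that leave out a rat also rest on fewer rats, whereas the scalings kept all of them.

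With 3 rats a group, and limma's prior variance wide for very abundant genes (a standard error of 0.98 for Alb), a gene that did not pass is not shown to be unchanged. Read counts were not used, so the counting error of low values (C4b and C3ar1 in controls, a C4a row, Cd55) is not known. No paired analysis was possible because the rats of the groups are different animals, and their numbers match in 1 case only, rat 5.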

Other observations

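Ratios between complement genes of 1 rat do not depend on scaling each rat by 1 factor, and some were computed after the values were seen, without a test. C7 amounted to 0.0102, 0.018 and 0.0145 of C9 in CL5, CL6 and CL7 and to 0.0294, 0.166 and 0.232 of it in FL2, FL5 and FL12, so it was nearer to C9 in every FL rat. C8b was at 0.779, 0.88 and 0.828 of C8a in the controls and at 0.701, 0.827 and 0.81 in the FL rats, which overlapped. The chains of the C4b-binding protein also kept close ratios, with C4bpa at 1.39 to 1.74 times C4bpb in the controls and 1.79 to 2 times in the FL rats, just above the control range. C1r was at 1.11, 0.722 and 0.708 times its inhibitor gene Serping1 in CL5, CL6 and CL7 and at 0.635, 1.05 and 1.05 times in FL2, FL5 and FL12, with both groups spread alike.

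Genes known from Kupffer cells, the resident macrophages of the liver, were spread widely among the FL rats. The Kupffer cell gene Timd4 was at 0.59, 0.34 and 0.29 FPKM (CL5, CL6, CL7) and at 1.40, 1.72 and 0.52 FPKM (FL2, FL5, FL12), and did not pass (adjusted p = 0.0786). Vsig4, the Kupffer cell receptor for C3b, was at 16.4, 14.9 and 19.4 FPKM in the controls and 28.8, 28.1 and 17.01 FPKM in the FL rats (adjusted p = 0.131). In both genes, as in C1q and Clec4f, FL12 was the lowest FL rat. These genes were picked after their values were seen.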
